A study of Mus musculus with 12 samples.

Results

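The Slc25 genes encode the mitochondrial carriers, a family of membrane proteins built from repeated helix pairs that move metabolites across the inner mitochondrial membrane. They bring phosphate and ADP in and ATP out, exchange organic acids and amino acids between cytosol and matrix, and deliver cofactors and iron. In microglia, the resident macrophages of the brain, they connect glycolysis and amino acid use to respiration, and cytosolic citrate exported by one of them feeds lipid synthesis. All rows of the count table that were annotated as protein coding and whose symbol starts with Slc25a were taken as members, which gave 45 genes of 24934 in the table. The pseudogene Slc25a5-ps was thereby left out, as were family members with other symbols such as Ucp2.

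The data are 12 RNA-seq libraries, in 3 groups of 4, of the established mouse microglial cell line BV2. In the Acacetin group the flavone acacetin was given at 10 µM. Their treatment label does not itself name deprivation, but the design text places the compound after it, and the group is read that way here. OGD cells underwent oxygen and glucose deprivation with re-oxygenation, a culture model of stroke, without the compound. For Control cells the labels name no deprivation and no compound. The duration of deprivation and of re-oxygenation was not given in the sources used here, and the sources do not say whether replicate libraries stem from different cultures, so p-values measure only the spread between these libraries.

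Library depth ran from 16427886 to 32693066 counted reads, of which 0.324% to 0.424% belonged to Slc25a members. Of 10 microglial or macrophage markers, 9 averaged over 1 CPM (reads per gene scaled to a common library size), with a summed level of 1404 to 2393 CPM in Acacetin, 1675 to 2288 CPM in OGD and 1989 to 2207 CPM in Control. P2ry12, a marker of brain-resident microglia, averaged 0.05 CPM. Of the 4 markers each of astrocytes, neurons, oligodendrocytes, endothelial cells and fibroblasts, 1 averaged over 1 CPM (the myelin gene Mbp, at 1.38 CPM). The summed levels stayed between 0 and 0.332 CPM for astrocytes, 0.0781 and 1.72 CPM for neurons, 0.999 and 2.62 CPM for oligodendrocytes, 0.427 and 2.20 CPM for endothelial cells and 0 and 0.398 CPM for fibroblasts. The 18S rRNA gene took 13.1% of the reads in OGD 2, 21.3% in OGD 3 and at most 1.86% elsewhere. Results are therefore also given without both. Libraries also differed in how long genes stood against short ones. This length slope, the change in log2(CPM + 1) relative to all libraries per doubling of gene length, was lowest in Acacetin 1 (-0.154) and highest in Acacetin 3 (0.231).

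Of the 45 members, 39 passed the filter on low counts and were tested. The other 6 were Slc25a2, Slc25a21, Slc25a27, Slc25a34, Slc25a41 and Slc25a48, with at most 31 reads each over all 12 libraries together. Members differed widely in level. On the deposited FPKM scale (fragments scaled to gene length and to the total of the library), 6 members averaged over 50 FPKM, 25 averaged 1 to 50 FPKM and 8 tested members averaged under 1 FPKM. The first 6 accounted for 85.1% to 87.6% of the summed FPKM of the family in the Acacetin libraries, 84.6% to 88.2% in the OGD libraries and 88.1% to 88.7% in the Control libraries.

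The most abundant member was Slc25a5 (ENSMUSG00000016319.4, chromosome X), the ADP/ATP translocase of proliferating cells, at 669 ± 30.02 FPKM in Acacetin, 650 ± 110 FPKM in OGD and 603 ± 23.5 FPKM in Control (mean ± SD, n = 4 each, as for all errors of means below). Slc25a39 (chromosome 11), needed for glutathione import, was second at 171 ± 20.3 FPKM in Acacetin, 147 ± 33.5 FPKM in OGD and 206 ± 19.997 FPKM in Control. The third, Slc25a4 (chromosome 8), is the translocase best known from heart and muscle and a paralog of Slc25a5. It stood at 133 ± 14.03 FPKM in Acacetin, 117 ± 16.99 FPKM in OGD and 112 ± 14.5 FPKM in Control. In the main edgeR fit each of the 3 was uncalled in every comparison.

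Next in order came the oxoglutarate carrier gene Slc25a11 (chromosome 11), at 112 ± 11.9 FPKM in Acacetin, 93.4 ± 22.7 FPKM in OGD and 127 ± 5.17 FPKM in Control. The phosphate carrier gene Slc25a3 (chromosome 10) had 89.1 ± 5.47 FPKM in Acacetin, 77.9 ± 17.3 FPKM in OGD and 78.3 ± 2.74 FPKM in Control. The citrate carrier gene Slc25a1 (ENSMUSG00000003528.16, chromosome 16) had 58.7 ± 6.33 FPKM in Acacetin, 46.3 ± 11.5 FPKM in OGD and 81.6 ± 8.06 FPKM in Control. Only Slc25a1 among these 6 abundant members was called in a comparison of the main fit. With the gene length trend removed, Slc25a5 (higher), Slc25a39 and Slc25a11 (both lower) were also called in OGD against Control, as given below. The pyrimidine nucleotide carrier gene Slc25a33 (chromosome 4) averaged 27.99 FPKM and the dicarboxylate carrier gene Slc25a10 (ENSMUSG00000025792.10, chromosome 11) 24.1 FPKM over the 12 libraries. Ranges of Slc25a4 and Slc25a11 overlapped within each group. Slc25a5 lay above Slc25a39 in every library, and Slc25a11 lay above Slc25a3 without overlap in Acacetin and Control but not in OGD. FPKM values are per all fragments. The summed FPKM of the family was lowest in OGD 3 (981). In OGD 2, also rich in ribosomal RNA, it was 1330, within the Control range of 1321 to 1427. The part of ribosomal RNA in these sums was not tested. Comparisons between groups below use CPM.

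**Figure D1:**
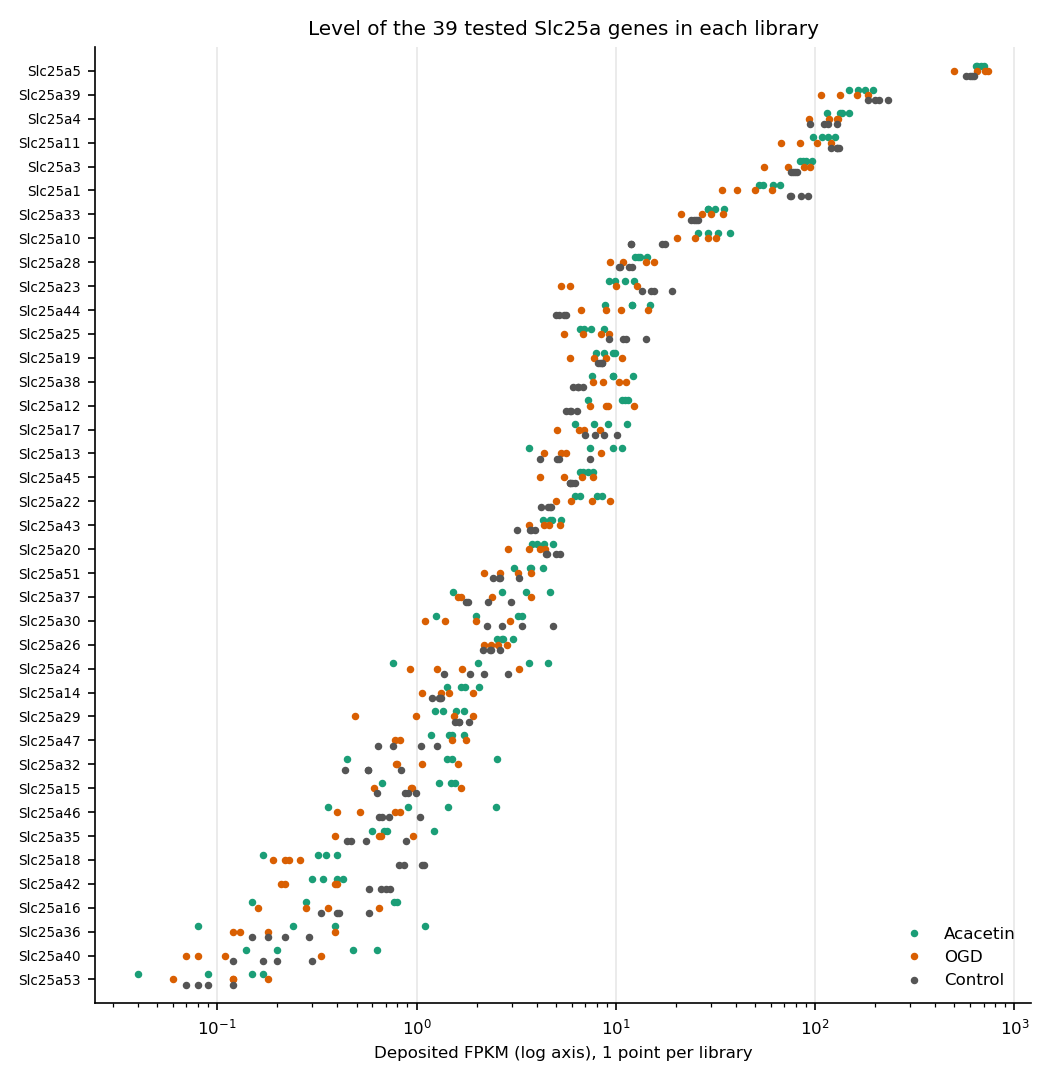
Deposited FPKM (log axis) of the 39 tested Slc25a genes, 1 point per library, ordered by their mean over the 12 libraries, with Acacetin in green, OGD in orange and Control in grey. Slc25a5 stands apart at the top with group means of 603 to 669 FPKM, and 6 genes average over 50 FPKM.

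Deprivation and re-oxygenation changed carriers in both directions. In OGD against Control, 6 members rose and 6 fell of 39 tested, while 27 were not called (edgeR quasi-likelihood test, adjusted p under 0.05 over all 13249 genes tested). That is 30.8% of the members, where 28.8% of all tested genes were called, 16.2% higher and 12.6% lower, so the share is near the background. In such bulk samples, fewer cells with a transcript and less of it per cell cannot be told apart. The median log2 fold change was 0.19 over the members and 0.03 over all tested genes. The groups did not overlap for 14 of the 39 members, against 36% of all tested genes.

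By substrate, 4 of the 8 tested amino acid carriers rose (Slc25a44, Slc25a12, Slc25a22 and Slc25a38) and 1 fell (Slc25a18). Among 10 tested carriers of phosphate, adenine nucleotides and coenzyme A, 0 rose and 3 fell (Slc25a23, Slc25a25 and Slc25a42). The 4 tested di- and tricarboxylate carriers gave 1 rise (Slc25a10) and 1 fall (Slc25a1). The 8 tested carriers of nucleotides, cofactors and glutathione gave 1 rise (Slc25a32), and the 2 tested members like the uncoupling proteins gave 1 fall (Slc25a30). No gene was called among 3 carriers of carnitine esters and related members, 2 iron carriers and 2 divergent members, in which 0, 0 and 0 genes had an unadjusted p under 0.05. The group medians were 0.53 for amino acid carriers and -0.16 for phosphate and adenine nucleotide carriers, and -0.01 for di- and tricarboxylates. They were 0.18 for nucleotides, cofactors and glutathione, -0.21 for members like the uncoupling proteins, 0.12 for carnitine esters, 0.24 for iron and 0.18 for the divergent members.

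**Figure D2:**
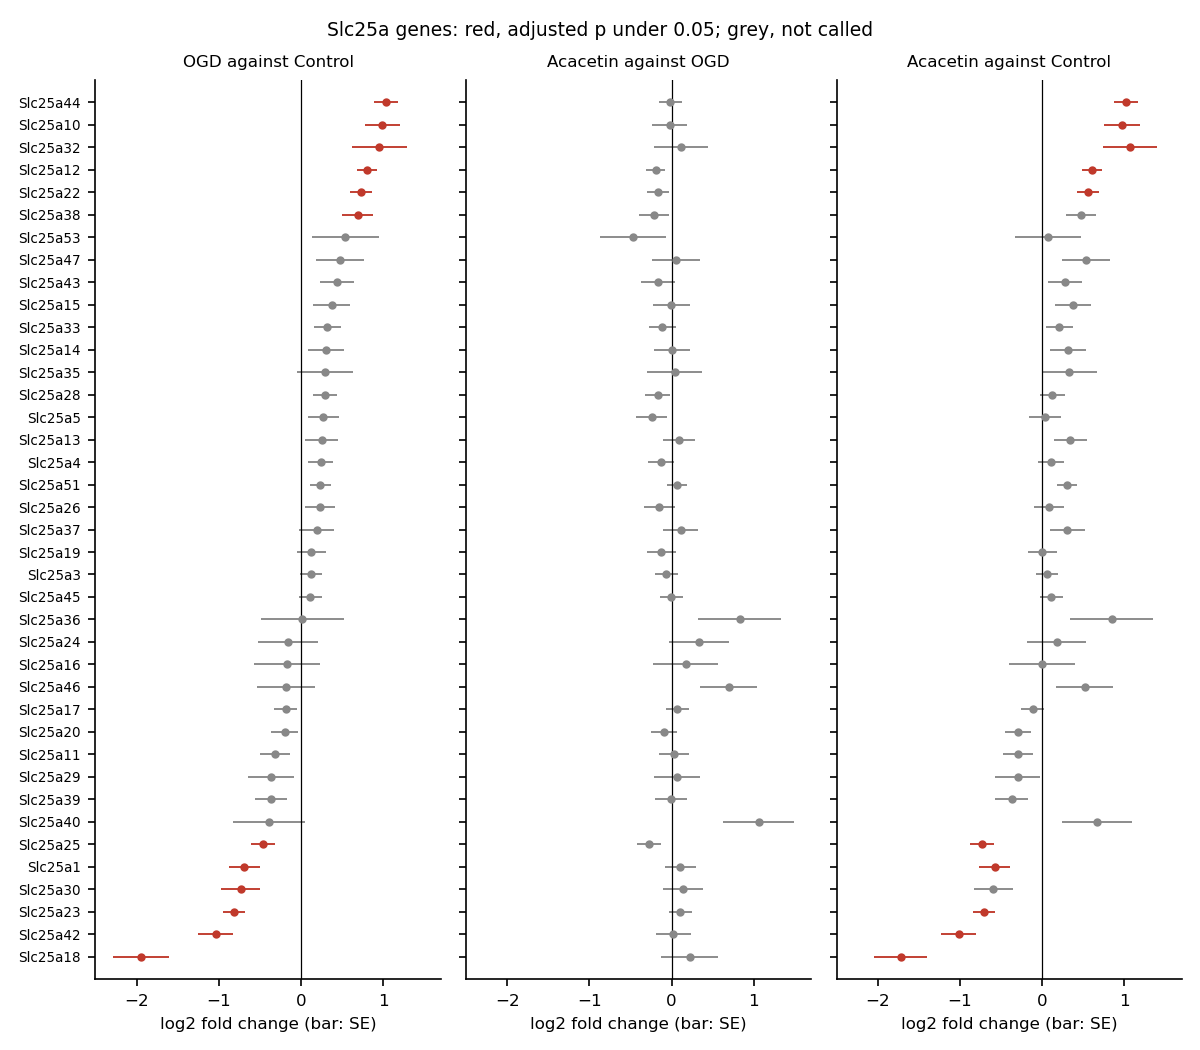
Log2 fold changes with SE for the 39 tested Slc25a genes in the 3 comparisons, ordered by OGD against Control; red marks an edgeR adjusted p under 0.05. Red points lie on both sides of 0 in OGD against Control (6 higher, 6 lower) and in Acacetin against Control (5 higher, 5 lower), and the middle panel has 0.

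Slc25a44 (ENSMUSG00000050144.14, chromosome 3), the carrier of branched-chain amino acids, had the largest fitted rise. It stood at 43.3, 48.5, 42.02 and 49.4 CPM in OGD 1 to 4, against 24.2, 24.1, 21.4 and 19.9 CPM in Control 1 to 4. Every OGD library lay above every Control library. The log2 fold change was 1.03 ± 0.14 (SE, as for all log2 fold changes below), a 2.04-fold higher level with an edgeR adjusted p of 0.000259.

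Slc25a12 (ENSMUSG00000027010.17, chromosome 2) encodes aralar, the aspartate/glutamate carrier of the malate-aspartate shuttle, which passes reducing equivalents from the cytosol into mitochondria. Its level was 76.1, 99.5, 96.2 and 86.8 CPM in OGD 1 to 4, against 50.8, 52.4, 51.6 and 50.8 CPM in Control 1 to 4. The Control libraries were within 2 CPM of each other and all OGD libraries lay higher. The log2 fold change was 0.80 ± 0.12 (edgeR adjusted p = 0.000348). Its paralog Slc25a13 (chromosome 6), citrin, averaged 28.6 ± 2.96 CPM in OGD and 24.1 ± 4.53 CPM in Control and was not called (log2 fold change 0.25 ± 0.20, edgeR adjusted p = 0.383).

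The glutamate carrier genes went opposite ways. Slc25a22 (ENSMUSG00000019082.19, chromosome 7), which moves glutamate with a proton, had 51.8, 54.2, 52.7 and 53.7 CPM in OGD 1 to 4, against 35.2, 30.2, 32.6 and 30.2 CPM in Control 1 to 4. Its log2 fold change was 0.73 ± 0.14 (edgeR adjusted p = 0.00149, but 0.0570 by limma on log2(FPKM + 1), with 4.71e-06 to 0.0570 over 18 alternatives). Slc25a18 (ENSMUSG00000004902.8, chromosome 6), the second glutamate carrier, had 0.474, 0.749, 0.625 and 0.422 CPM in OGD 1 to 4, against 2.50, 1.99, 1.86 and 2.26 CPM in Control 1 to 4. These groups did not overlap either, and the log2 fold change of -1.94 ± 0.34 was the lowest of the family (edgeR adjusted p = 0.000959). By limma on log2(FPKM + 1), a scale that shrinks changes of low genes, it was -0.68 (adjusted p = 0.000133, where 18 alternatives gave 1.25e-06 to 0.00795). Slc25a18 rests on 8 to 15 reads per OGD library and 47 to 68 reads per Control library. It overlaps an exon of Atp6v1e1, a proton pump gene on the opposite strand that averaged 127 CPM and had a log2 fold change of 0.06 ± 0.15 (edgeR adjusted p = 0.790). The strand setting of the counting was not given in the sources used here, so reads of the overlap cannot be told apart. The same holds for Slc25a25 with Naif1, Slc25a10 with Gm11788, Slc25a23 with Gm17168, Slc25a11 with Rnf167, Slc25a33 with Gm13068, Slc25a37 with Gm27223 and Gm31748, and Slc25a46 with B930094E09Rik.

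Slc25a38 (ENSMUSG00000032519.12, chromosome 9) imports glycine, a precursor of heme, and had 32.5, 36.1, 37.1 and 29.4 CPM in OGD 1 to 4, against 23.2, 21.4, 20.1 and 19.04 CPM in Control 1 to 4. All OGD libraries were above the Control libraries, with a log2 fold change of 0.69 ± 0.18 (edgeR adjusted p = 0.0125). Leaving out both libraries with much 18S rRNA, OGD 2 and OGD 3, it was 0.57 with an adjusted p of 0.0908, where 18 alternatives gave 0.000730 to 0.0908.

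Among carriers of organic acids, Slc25a10, which exchanges malate or succinate for phosphate, stood at 125, 131, 124 and 96.1 CPM in OGD 1 to 4, against 75.2, 49.5, 70.4 and 44.4 CPM in Control 1 to 4. The groups did not overlap, and the level was 1.99-fold higher in OGD (log2 fold change 0.99 ± 0.22, edgeR adjusted p = 0.00396). Slc25a1 exports citrate to the cytosol, where it is cut into acetyl-CoA for fatty acid and sterol synthesis. It had 149, 133, 130 and 103 CPM in OGD 1 to 4, against 245, 196, 193 and 197 CPM in Control 1 to 4. All 4 OGD libraries lay below the Control libraries, among which Control 1 was the highest. The log2 fold change was -0.69 ± 0.19 (edgeR adjusted p = 0.0146, and -0.72 with 0.0560 without OGD 2 and OGD 3, the only one of 18 alternatives without a call, with 0.000803 as the smallest).

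Both called carriers of ATP-Mg and phosphate were lower. These calcium-regulated proteins set the adenine nucleotide content of the matrix. Slc25a23 (ENSMUSG00000046329.15, chromosome 17) had 60.4, 47.3, 49.4 and 65.0 CPM in OGD 1 to 4, against 101, 95.5, 85.4 and 109 CPM in Control 1 to 4. Its log2 fold change was -0.82 ± 0.14 (edgeR adjusted p = 0.000723). Slc25a25 (ENSMUSG00000026819.16, chromosome 2) had 75.9, 82.1, 76.1 and 69.4 CPM in OGD 1 to 4, against 106, 107, 86.7 and 121 CPM in Control 1 to 4. The groups did not overlap for either gene, but the fall of Slc25a25 was smaller (log2 fold change -0.47 ± 0.15, edgeR adjusted p = 0.0278). Its call was lost without Control 1 (0.0583), Control 2 (0.0660), OGD 1 (0.0566) or OGD 4 (0.0680), and with the gene length trend removed (0.107, the highest of 18 alternatives, with 0.00132 the lowest). Their relative Slc25a24 (chromosome 3) averaged 7.45 ± 2.45 CPM in OGD and 8.31 ± 2.15 CPM in Control and was not called (log2 fold change -0.16 ± 0.37).

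Slc25a42 (ENSMUSG00000002346.17, chromosome 8), the carrier of coenzyme A, was at a low level and had 2.75, 2.00, 2.19 and 2.21 CPM in OGD 1 to 4, against 4.30, 5.06, 4.72 and 4.78 CPM in Control 1 to 4. The groups did not overlap and the level fell to 0.487 of that in Control (log2 fold change -1.04 ± 0.21, edgeR adjusted p = 0.00262). By limma on log2(FPKM + 1) it was -0.36 (adjusted p = 0.00499, where 18 alternatives gave 1.06e-06 to 0.0395).

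Calls of the remaining pair were the least stable. Slc25a32 (ENSMUSG00000022299.10, chromosome 15), which brings folate or flavin into mitochondria, had 5.46, 9.84, 8.59 and 9.35 CPM in OGD 1 to 4, against 3.32, 4.15, 4.17 and 5.51 CPM in Control 1 to 4, so that OGD 1 lay just below Control 4. Its log2 fold change was 0.95 ± 0.33 (edgeR adjusted p = 0.0452). The call was lost in 12 of 18 alternatives (0.00430 to 0.299), among them without Control 1 (0.119), Control 2 (0.1004), Control 3 (0.0920), Control 4 (0.0691), OGD 2 (0.111), OGD 3 (0.110) or OGD 4 (0.0913), and without OGD 2 and OGD 3 together (0.269). Slc25a30 (ENSMUSG00000022003.8, chromosome 14), first described as a kidney mitochondrial carrier and similar to the uncoupling proteins, had 10.4, 9.64, 8.90 and 12.96 CPM in OGD 1 to 4, against 12.7, 18.5, 14.6 and 23.9 CPM in Control 1 to 4. OGD 4 lay just above Control 1. The log2 fold change was -0.73 ± 0.24 (edgeR adjusted p = 0.0342), and the call was lost in 8 of 18 alternatives (0.00922 to 0.288), among them without Control 2 (0.0805), Control 4 (0.146), OGD 1 (0.0683), OGD 2 (0.0861) or OGD 3 (0.119), and without OGD 2 and OGD 3 together (0.288).

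**Figure D3:**
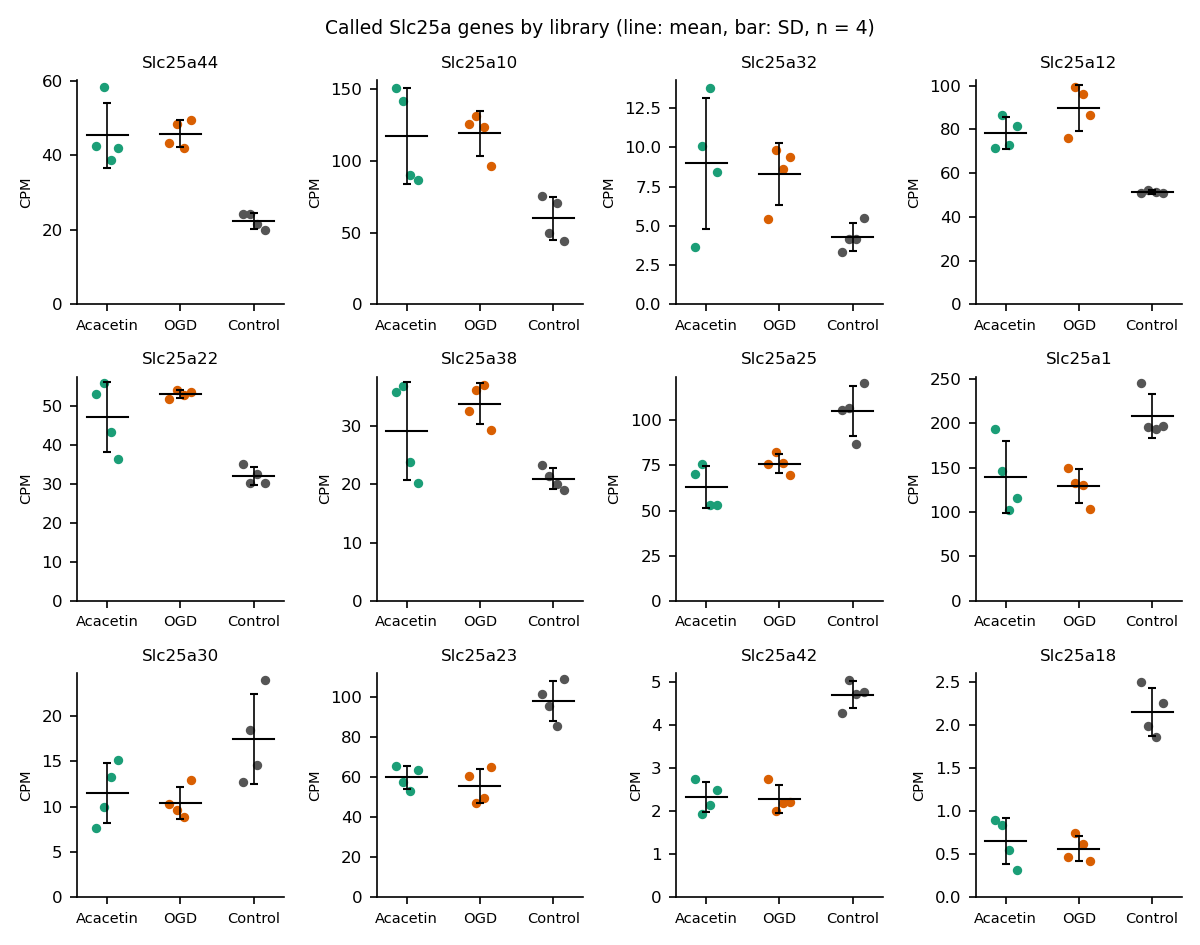
CPM of the 12 Slc25a genes called in a comparison, in each of 4 Acacetin, 4 OGD and 4 Control libraries, with mean (line) and SD (bar). In reading order the first 6 panels, up to Slc25a38, are the genes that rose in OGD against Control and the last 6 are those that fell, and in 10 of the 12 panels the OGD and Control points do not overlap.

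Other carriers stayed uncalled. The mitoferrin genes, which import iron, averaged 60.1 ± 6.51 CPM in OGD and 49.2 ± 5.83 CPM in Control for Slc25a28 (chromosome 19), and 17.7 ± 2.80 CPM in OGD and 15.5 ± 3.00 CPM in Control for Slc25a37 (chromosome 14). Their log2 fold changes were 0.29 ± 0.15 and 0.19 ± 0.21. The carnitine/acylcarnitine carrier gene Slc25a20 (chromosome 9), which serves fatty acid oxidation, averaged 23.8 ± 3.22 CPM in OGD and 27.3 ± 1.21 CPM in Control (log2 fold change -0.20 ± 0.16). The NAD carrier gene Slc25a51 (chromosome 4) averaged 20.8 ± 0.918 CPM in OGD and 17.6 ± 1.28 CPM in Control, and its log2 fold change was 0.24 ± 0.12 (edgeR adjusted p = 0.173). With the gene length trend removed, 16 members were called, 9 higher and 7 lower, against 12 without that step. These included 5 further genes, namely higher Slc25a5, Slc25a33 and Slc25a43 and lower Slc25a11 and Slc25a39. The share of all genes called in that fit is not given here. The higher number is therefore not read as particular to the carriers.

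Acacetin against OGD asked whether carriers moved when the compound was added. EdgeR called 0 of 39 members and 0% of all 13249 genes, and DESeq2 also called 0 members. At an unadjusted p under 0.05 there was 1 member, Slc25a40, where 5.17% of all tested genes passed. The groups overlapped for every tested member, whereas they did not overlap for 2.35% of all genes. The median log2 fold change was 0.01 over the members and -0.02 over all tested genes. The estimates were below 0.5 in size for 36 of the 39 members. The SE ran from 0.12 to 0.50 with a median of 0.20, so the size of difference that could be missed varied by member.

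The named members differed in how closely the Acacetin libraries followed the OGD libraries. Slc25a44 had 42.5, 58.2, 38.7 and 42.01 CPM in Acacetin 1 to 4, with a log2 fold change of -0.01 ± 0.14 against OGD. Slc25a18 had 0.902, 0.844, 0.550 and 0.323 CPM in Acacetin 1 to 4, which was 0.22 ± 0.35 on the log2 scale against OGD. Both sets of Acacetin values overlap the OGD values given before. Slc25a10 had 151, 141, 89.9 and 86.7 CPM in Acacetin 1 to 4, with Acacetin 1 and 2 above and Acacetin 3 and 4 below all OGD libraries (log2 fold change -0.02 ± 0.21). Slc25a38 was split between the same libraries, with 35.8 and 36.9 CPM in Acacetin 1 and 2 and 23.7 and 20.3 CPM in Acacetin 3 and 4, the last of which lay within the Control range. Its log2 fold change against OGD was -0.21 ± 0.18. The spread over Acacetin libraries was also wide for Slc25a32 and Slc25a1, whose ranges of 3.66 to 13.8 CPM and 102 to 194 CPM reach past the OGD range at both ends.

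The 5 members with the smallest unadjusted p in this comparison were Slc25a40, Slc25a46, Slc25a25, Slc25a12 and Slc25a36. Slc25a40 (ENSMUSG00000054099.12, chromosome 5), a relative of Slc25a39, had 1.61, 1.80, 4.75 and 3.94 CPM in Acacetin 1 to 4, against 1.01, 1.05, 1.02 and 2.66 CPM in OGD 1 to 4. Its log2 fold change was 1.06 ± 0.43 (edgeR unadjusted p = 0.0283, adjusted p = 0.8287). Slc25a46 (ENSMUSG00000024259.10, chromosome 18), a divergent member of the outer membrane that shapes mitochondria, had 2.66, 5.41, 12.3 and 7.53 CPM in Acacetin 1 to 4, against 4.80, 4.25, 3.83 and 4.32 CPM in OGD 1 to 4. Slc25a36 (ENSMUSG00000032449.14, chromosome 9), a pyrimidine nucleotide carrier gene, had 1.00, 2.53, 9.48 and 3.68 CPM in Acacetin 1 to 4, against 1.93, 1.90, 2.03 and 3.54 CPM in OGD 1 to 4. In all 3 genes Acacetin 3 was the highest library of all, and for Slc25a46 and Slc25a36 Acacetin 1 was the lowest of all. The log2 fold changes of Slc25a46 and Slc25a36 were 0.70 ± 0.35 and 0.83 ± 0.50 (edgeR adjusted p = 0.8287 for each). Without Acacetin 3 that of Slc25a36 was 0.04.

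The length slope of the libraries was -0.154 in Acacetin 1, 0.0221 in Acacetin 2, 0.231 in Acacetin 3 and 0.0975 in Acacetin 4, and -0.0312, -0.103, -0.0600 and 0.131 in OGD 1 to 4. Slc25a36, with a gene length of 11.2 kb implied by the deposited tables, and Slc25a40, with 9.79 kb, are the longest tested members, and Slc25a46 has 6.35 kb, where the median of tested members is 4.46 kb. The library with the highest slope, Acacetin 3, was the highest in all 3 genes. OGD 4, with the highest slope of its group, was the highest OGD library for Slc25a36 (3.54 CPM) and Slc25a40 (2.66 CPM). The order of the other libraries followed the slope in part. Whether the slope accounts for these values was not tested. Slc25a40 had 1.61 CPM in Acacetin 1, above OGD 1 to 3, and Slc25a46 had 4.32 CPM in OGD 4, within the range of the other OGD libraries. With the gene length trend removed, the log2 fold changes were 0.95 for Slc25a40, 0.66 for Slc25a46 and 0.55 for Slc25a36, with edgeR adjusted p of 0.655, 0.757 and 0.791. Slc25a12 (8.66 kb) and Slc25a25 (9.21 kb) are also long, and their highest value was not in Acacetin 3. Slc25a12 had 71.3, 86.8, 73.0 and 81.8 CPM in Acacetin 1 to 4 and Slc25a25 had 70.0, 75.8, 53.1 and 53.03 CPM. Their log2 fold changes against OGD were -0.20 ± 0.12 and -0.27 ± 0.15 (edgeR adjusted p = 0.8287 each), and by limma on log2(FPKM + 1) the sign turned, to 0.09 and 0.0046, on a scale where the median of all genes lay at 0.16.

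**Figure D4:**
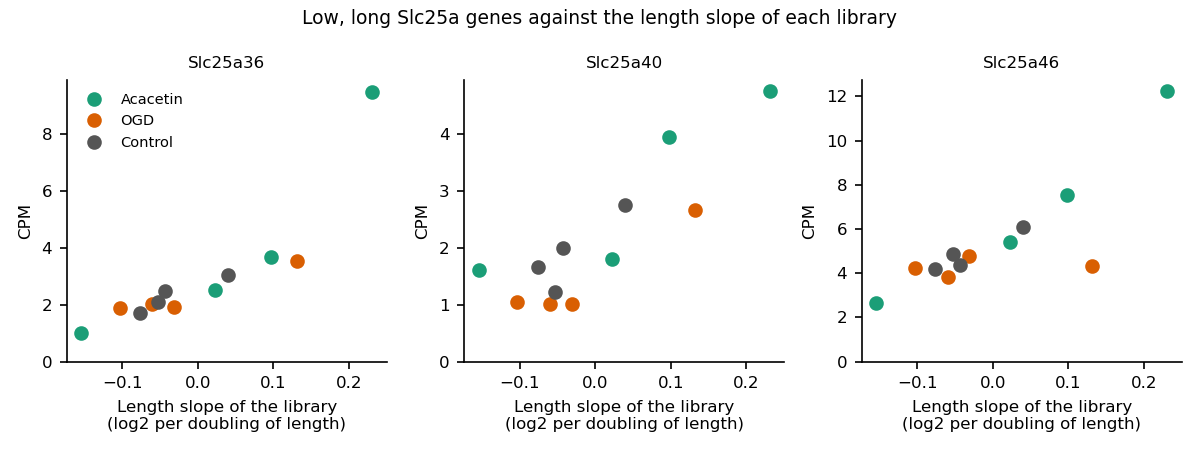
CPM of Slc25a36, Slc25a40 and Slc25a46 in each of the 12 libraries against the library's slope of log2 expression on log2 gene length, which runs from -0.154 to 0.231. The Acacetin points (green) span the whole range of slopes, and Acacetin 3, at a slope of 0.231, is the highest point in each panel.

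Acacetin against Control shares its Acacetin libraries with the comparison just given and its Control libraries with the first. It called 10 of 39 members (25.6%), 5 higher and 5 lower, where 26.9% of all tested genes were called, 14% higher and 12.9% lower. The groups did not overlap for 8 members, against 25.7% of all genes, and the median log2 fold change was 0.12 over members and 0.08 over all genes. By substrate, the amino acid carriers gave 3 rises and 1 fall among 8, the phosphate and adenine nucleotide carriers 0 rises and 3 falls among 10, the di- and tricarboxylate carriers 1 of each among 4, and the carriers of nucleotides, cofactors and glutathione 1 rise among 8. The uncoupling-protein-like, carnitine ester, iron and divergent members gave 0 calls, with 1, 0, 0 and 0 genes at an unadjusted p under 0.05.

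The called rises against Control were those of Slc25a44 (log2 fold change 1.02 ± 0.14, edgeR adjusted p = 0.000471), Slc25a10 (0.97 ± 0.22, 0.00553), Slc25a12 (0.61 ± 0.12, 0.00237), Slc25a22 (0.56 ± 0.14, 0.00872) and Slc25a32 (1.07 ± 0.33, 0.0289). Slc25a22 had 53.1, 56.0, 43.3 and 36.5 CPM in Acacetin 1 to 4, all above the Control values given before. Slc25a32 had 3.66, 10.1, 13.8 and 8.40 CPM in Acacetin 1 to 4, so that Acacetin 1 lay within the Control range. The call of Slc25a32 was lost without Control 1 (0.0853), Control 2 (0.0733), Control 3 (0.0652), Acacetin 2 (0.0714) or Acacetin 3 (0.0830), with 0.000874 to 0.0991 over 18 alternatives.

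The called falls against Control were those of Slc25a18 (log2 fold change -1.72 ± 0.33, edgeR adjusted p = 0.00208), Slc25a42 (-1.02 ± 0.21, 0.00371), Slc25a25 (-0.74 ± 0.15, 0.00283), Slc25a23 (-0.71 ± 0.14, 0.00220) and Slc25a1 (-0.58 ± 0.19, 0.0358). Slc25a42 had 2.75, 1.95, 2.14 and 2.49 CPM in Acacetin 1 to 4, and Slc25a23 had 65.7, 57.7, 52.8 and 63.4 CPM, below every Control library in both genes. Slc25a1 had 194, 146, 102 and 115 CPM in Acacetin 1 to 4, with Acacetin 1 just above Control 3. Its call was lost in 9 of 18 alternatives (0.00169 to 0.108), among them without Control 1 (0.108), Control 2 (0.0648), Control 3 (0.0549), Acacetin 2 (0.0691), Acacetin 3 (0.0843) or Acacetin 4 (0.0993). By limma on log2(FPKM + 1) the estimate was -0.58 for Slc25a18 (adjusted p = 0.000542) and -0.29 for Slc25a42 (0.0192). On log2(FPKM + 0.1) Slc25a42 had -0.72 and lost its call (0.0580, where 18 alternatives gave 1.65e-06 to 0.0580). By limma on log2(FPKM + 1) Slc25a23 had -0.53 with an adjusted p of 0.118, where 18 alternatives gave 5.20e-07 to 0.119. Slc25a38 (0.48 ± 0.18, 0.0678) and Slc25a30 (-0.60 ± 0.24, 0.0790) were not called by edgeR here. Without Acacetin 1, the library with the lowest length slope, 16 members were called, 8 in each direction, while 43.1% of all genes tested in that fit were called.

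Paralogous carriers of 1 substrate were set against each other within each library, as the ratio of their CPM per kilobase. The glutamate pair changed the most, with 18.5 to 35.5 Slc25a22 per Slc25a18 in Acacetin, 22.8 to 40.1 in OGD and 4.21 to 5.50 in Control. The ratio was higher in OGD than in Control by 2.68 on the log2 scale and higher in Acacetin than in Control by 2.36. The separation of these ratios follows from the values of both genes given before, so it is given as a description only. The ratio of Slc25a12 to Slc25a13 was 1.03 to 1.96 in Acacetin, 1.47 to 1.69 in OGD and 0.863 to 1.34 in Control, where OGD and Control did not overlap (difference 0.53 on the log2 scale). These pairs were chosen after the values were seen, and no test is given for them.

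The translocase pair held a narrow ratio, with 4.37 to 5.94 Slc25a5 per Slc25a4 in Acacetin, 5.32 to 5.69 in OGD and 4.86 to 6.10 in Control. The sequences of these genes are similar and Slc25a5 has processed copies, so the division of their reads is uncertain. Slc25a28 exceeded Slc25a37 by 2.81 to 8.47 times in Acacetin, 3.78 to 6.503 times in OGD and 3.52 to 6.80 times in Control. Slc25a39 exceeded Slc25a40 by 234 to 1364 times in Acacetin, 487 to 1734 times in OGD and 682 to 1959 times in Control. The groups overlapped in each of these 3 pairs.

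**Figure D5:**
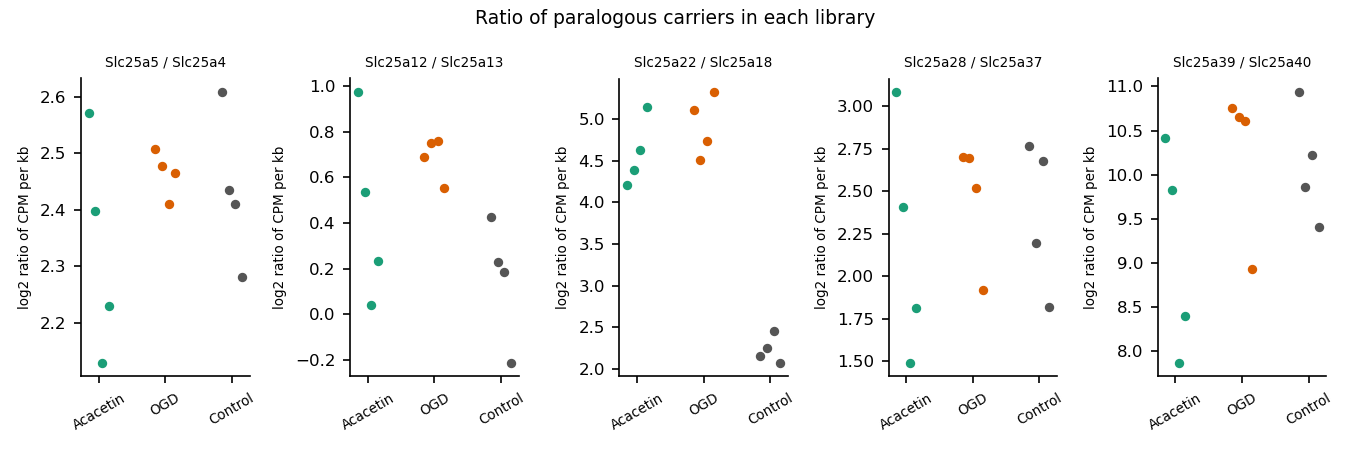
Log2 ratio of 5 pairs of paralogous carriers in each library, from CPM per kilobase, with a separate vertical axis for each pair that does not start at 0. For Slc25a22 over Slc25a18, the 4 Acacetin and 4 OGD points all lie above the 4 Control points, at ratios of 18.5 to 40.1 against 4.21 to 5.50.

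Upstream sequences were also examined, as a description only, since no set test was made of the substrate groups. RefSeq windows (GRCm38.p6, whereas the counts use GRCm39) were found for 34 of the 45 members and 10 of the 12 called ones. The 250 bases before the start of transcription were searched on both strands for the E-box CACGTG, the CRE TGACGTCA, the palindromic motif of NRF1, the ATF4 composite motif TGATGNAAT, the GC box GGGGCGGGG, the ETS motif CCGGAAG and the hypoxia-element core ACGTGC. These were picked from textbook knowledge. The windows of Slc25a38 and Slc25a10 are shown for rises in OGD, and those of Slc25a1 and Slc25a25 for falls, with matches in capitals. The Slc25a38 window is chr9:120110132-120110381 (plus strand), that of Slc25a10 is chr11:120491587-120491836 (plus strand), that of Slc25a1 is chr16:17928220-17928469 (minus strand), and that of Slc25a25, which has 3 starts in the table, is chr2:32424067-32424316 (minus strand).
Slc25a38: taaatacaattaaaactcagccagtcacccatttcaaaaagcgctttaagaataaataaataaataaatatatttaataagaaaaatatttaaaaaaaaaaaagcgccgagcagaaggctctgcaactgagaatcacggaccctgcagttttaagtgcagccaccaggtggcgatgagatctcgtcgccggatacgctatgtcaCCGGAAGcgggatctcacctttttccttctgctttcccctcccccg
Slc25a10: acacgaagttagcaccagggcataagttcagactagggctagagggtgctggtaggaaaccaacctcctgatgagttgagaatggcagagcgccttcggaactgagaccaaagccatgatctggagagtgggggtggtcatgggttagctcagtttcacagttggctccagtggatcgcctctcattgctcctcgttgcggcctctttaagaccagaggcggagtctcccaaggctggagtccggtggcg
Slc25a1: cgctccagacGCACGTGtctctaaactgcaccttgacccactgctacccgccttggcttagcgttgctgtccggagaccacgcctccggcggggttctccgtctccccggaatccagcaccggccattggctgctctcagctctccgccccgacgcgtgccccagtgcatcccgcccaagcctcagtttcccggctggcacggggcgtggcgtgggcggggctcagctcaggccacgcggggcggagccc
Slc25a25: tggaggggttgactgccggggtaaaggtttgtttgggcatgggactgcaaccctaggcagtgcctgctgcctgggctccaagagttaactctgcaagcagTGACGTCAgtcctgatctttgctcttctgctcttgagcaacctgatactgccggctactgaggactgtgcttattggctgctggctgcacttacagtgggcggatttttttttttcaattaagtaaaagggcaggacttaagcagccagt
The capitals mark an ETS match in Slc25a38, overlapping matches of the E-box and the hypoxia-element core in Slc25a1, and a CRE match in Slc25a25, while Slc25a10 has 0 matches. The other windows of Slc25a25 had no match. Of the called members with a window that is not shown, only Slc25a22 had a match, so the windows shown are not typical. Among the 10 called members with a window, each of the E-box, CRE, GC box, ETS and hypoxia motifs was found in 1, and the NRF1 and ATF4 motifs in 0. Over all 32851 windows in the table the E-box occurred in 6.02%, the CRE in 1.55%, the GC box in 10.4%, the ETS motif in 6.91%, the hypoxia core in 4.92%, the NRF1 motif in 0.782% and the ATF4 motif in 0.816%. Over all 34 members with a window, the E-box was found in 6, the ETS motif in 5, the GC box in 3, the CRE and the hypoxia core in 2 each and the others in 0. The counts of members are genes with a match in any of their windows, whereas the percentages are per window. Counts and percentages therefore cannot be compared directly, and no enrichment was tested. No motif was shared by 2 called members.

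Genes that work beside the carriers were taken from lists written from general knowledge. Carriers reach the inner membrane through the TOM pore, the small TIM chaperones and the TIM22 complex, and of 13 tested import genes 4 rose and 0 fell in OGD against Control (30.8%, background 28.8%). Their median log2 fold change was 0.43, and all 13 estimates were above 0. Timm29 (chromosome 9), a TIM22 subunit, averaged 46.7 ± 4.23 CPM in OGD and 19.8 ± 2.50 CPM in Control (log2 fold change 1.24 ± 0.13, edgeR adjusted p = 5.98e-05). The chaperone gene Timm9 (chromosome 12) averaged 51.04 ± 11.99 CPM in OGD and 22.3 ± 3.45 CPM in Control (1.20 ± 0.18, 0.000348). Both kept their call in all 18 alternatives. The other rises were Timm8a1 (0.74 ± 0.21, 0.0176) and the pore gene Tomm40 (0.53 ± 0.18, 0.0394). The call of Timm8a1 was lost without Control 2 (0.0520), OGD 2 (0.0655) or OGD 2 and OGD 3 together (0.189). That of Tomm40 was lost in 9 of 18 alternatives, among them without Control 2 (0.106), Control 4 (0.0719), OGD 1 (0.0891), OGD 2 (0.0935), OGD 3 (0.0552) or OGD 2 and OGD 3 together (0.159), and with the gene length trend removed (0.0703). In Acacetin against OGD 0 of the 13 were called (median -0.06). In Acacetin against Control 4 rose and 0 fell (30.8%, background 26.9%, median 0.28). These 4 were Timm29, Timm9, Tomm40 and Tomm70a, while Timm8a1 was not called (edgeR adjusted p = 0.0797). The calls of Tomm40 and Tomm70a against Control were each lost in 9 of 18 alternatives.

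Of 21 tested genes of other mitochondrial membrane transport, 4 rose and 2 fell in OGD against Control (28.6%, background 28.8%, median 0.02). Sfxn2 (chromosome 19), a sideroflexin, averaged 17.9 ± 1.20 CPM in OGD and 7.06 ± 2.17 CPM in Control (log2 fold change 1.34 ± 0.19, edgeR adjusted p = 0.000310). Mpc1 (chromosome 17), a subunit of the pyruvate carrier, averaged 24.99 ± 4.17 CPM in OGD and 39.4 ± 6.37 CPM in Control (-0.66 ± 0.17, 0.00975), and the serine transporter gene Sfxn3 (chromosome 19) fell by 0.65 on the log2 scale (0.00321). The porphyrin transporter gene Abcb6 (chromosome 1) had 0.62 ± 0.18 (0.0187), a call lost without Control 2 (0.0551), Control 3 (0.0504), OGD 2 (0.0505) or OGD 2 and OGD 3 together (0.0755), and by limma on log2(FPKM + 1) (0.183). This list had 0 calls in Acacetin against OGD (median -0.09). Acacetin against Control gave 2 rises and 4 falls (28.6%, background 26.9%, median 0.07).

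Of family members with other symbols, 3 were tested and 1 fell in OGD against Control (33.3%, background 28.8%, median -0.29). Ucp2 (chromosome 7), the uncoupling protein of immune cells, averaged 499 ± 127 CPM in Acacetin, 576 ± 80.4 CPM in OGD and 877 ± 113 CPM in Control. Its log2 fold change in OGD against Control was -0.61 ± 0.18 (edgeR adjusted p = 0.0237), and -0.81 ± 0.18 in Acacetin against Control (0.00591, called in all 18 alternatives). In OGD against Control it was no longer called when Control 1 (0.0762), OGD 2 (0.0694), OGD 4 (0.0505) or both OGD 2 and OGD 3 (0.136) were left out, or with the gene length trend removed (0.0547). Acacetin against OGD gave 0 calls among the 3 (median -0.11), and Acacetin against Control 1 fall (33.3%, background 26.9%, median -0.20). Of 10 tested regulators of mitochondrial gene expression, 1 rose and 2 fell in OGD against Control (30%, background 28.8%, median 0.26). Tfb1m (chromosome 17), which methylates mitochondrial ribosomal RNA, averaged 5.12 ± 1.11 CPM in OGD and 10.6 ± 1.33 CPM in Control (-1.06 ± 0.20, 0.00145). Pprc1, a coactivator gene, had 0.58 ± 0.16 (0.0158) and Gabpb1, a subunit of the factor GABP, -0.49 ± 0.16 (0.0298). Pprc1 was no longer called when Control 4 (0.0762), OGD 4 (0.0501) or both OGD 2 and OGD 3 (0.0504) were left out, or by limma on log2(FPKM + 1) (0.349). The call of Gabpb1 was lost in 8 of 18 alternatives, among them without Control 2 (0.0992), Control 4 (0.0841), OGD 1 (0.0679), OGD 3 (0.0800) or OGD 2 and OGD 3 together (0.1403), and by limma on log2(FPKM + 1) (0.1404). For the regulators, 0 were called in Acacetin against OGD (median 0.00). In Acacetin against Control 0 rose and 2 fell (20%, background 26.9%, median 0.26).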

How the data were processed

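The authors deposited a table of raw counts and a table of FPKM values, both by gene, whose 12 sample columns carry the library names. GRCm39 is the build, and HISAT2, bcl2fastq and DESeq2 are the tools, listed per the submitters' processing notes, without versions or roles. For the counter, the annotation release and the strand option, the sources used here give nothing, and the library kit is stranded per the labels' protocols.

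The count test was the quasi-likelihood test of edgeR 4.0.16 (R 4.3.3), two-sided, with TMM scaling. It was fitted once to all 12 libraries, with 1 mean per group, over the 13249 genes that filterByExpr left at a minimum count of 10 and a minimum total of 15. The p-values were adjusted over all 13249 genes by the Benjamini-Hochberg method, and genes under 0.05 were called with no fold limit. CPM values use TMM-scaled library sizes. Gene lengths come from the ratio of library-scaled counts to FPKM, and length slopes from log2(CPM + 1). The fits were checked on simulated data.

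Members called in any comparison were named with values for every library, with the 5 smallest p in Acacetin against OGD and the 8 highest FPKM. Up to 4 called genes per further list were named. Slc25a13, Slc25a20, Slc25a24, Slc25a28, Slc25a37, Slc25a51 and the paralog pairs were chosen after values were seen. Members and lists were chosen with earlier results of these data known. Alternatives were DESeq2 1.42.0, its size factors, other filters, a fold limit, only the 8 libraries compared, a replicate block, limma 3.58.1 on log2(FPKM + 1) and log2(FPKM + 0.1), a lowess trend on gene length (span 0.5) removed, and libraries left out. Library depth limits counting error only, since reads carry no molecular identifiers. Overlapping genes were looked up by name in GENCODE M21 (GRCm38).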

Additional observations from a re-analysis of the deposited data

Results flagged for a closer look

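In 3 of 63 groups of 4 libraries, covering the 21 members named by rule, a library stood apart from the others by Dixon's criterion for a gap relative to the range of its group. Chance gives about 1 in 20. Slc25a1 was at 245 CPM in Control 1 and at 193 to 197 CPM in the other Control libraries. Slc25a40 was at 2.66 CPM in OGD 4 and at 1.01 to 1.05 CPM in the other OGD libraries. Slc25a36 was at 3.54 CPM in OGD 4 and at 1.90 to 2.03 CPM in the other OGD libraries. OGD 4 has the highest length slope of its group (0.131), and Slc25a36 and Slc25a40 are the longest tested members. The part of the slope in these outlying libraries was not tested.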

How the results depend on the processing

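The number of called members was 12 in OGD against Control, 0 in Acacetin against OGD and 10 in Acacetin against Control. When calls also needed a log2 change of 1 or more in size, these became 3, 0 and 4. Leaving out 1 library at a time gave 9 to 11, 0 to 0 and 8 to 16, the last without Acacetin 1. DESeq2 gave 12, 0 and 12 members. It called 33.2%, 0.279% and 33.3% of all genes, against 28.8%, 0% and 26.9% in the main fit. By limma on log2(FPKM + 1) there were 11, 0 and 8 members, with 9 and 7 of those among the main calls. For settings without a share over all genes, a changed number is not read as a result about the carriers. Without OGD 2 and OGD 3 there were 8 members in OGD against Control, all among the 12, while 14.5% of all genes were called. Without Acacetin 1 and Acacetin 3 the 10 members of Acacetin against Control were called again. The signs of uncalled Slc25a12 and Slc25a25 in Acacetin against OGD turned on FPKM, to 0.091 and 0.0046 with 1 added and to 0.10 and 0.0075 with 0.1 added, where the cause was not tested. With the replicate number as a block, the counts were 12, 0 and 12. The labels do not say that numbers pair libraries, and the correlation of deviations ran from -0.35 to 0.60 over 12 same-numbered pairs (9 above 0.1) and from -0.77 to 0.73 over 36 others. Members under 1 FPKM rest on few reads, which limits their precision.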
